A study of Sus scrofa with 28 samples.

Results

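Genes of redox defence, ferritin iron storage and the thioredoxin inhibitor TXNIP were described in semimembranosus muscle, a large muscle of the ham, from pigs with normal and with destructured meat. Their probes are those to which the platform annotation gives exactly 1 gene symbol out of SOD1, GPX4, GSTA1, GSTO1, MGST3, TXNIP, SELENOW, FTH1 and FTL. This rule found 18 of the 4608 probes on the array, for all 9 genes: 4 each for SELENOW and FTH1, 3 for FTL, 2 for MGST3 and 1 for each of the other genes. The annotation names 509 probes in all. The normal group held 7 pigs with low L* (a darker meat) and the destructured group 7 pigs with high L*, a lightness grade that marks the pale defect of ham muscle. Breed, sex and age are not given in the sources used here. Both groups were graded on the meat itself, and no treatment separates them. Each pig had 1 nylon cDNA array, hybridised with its radiolabelled muscle cDNA and printed with every probe on its left and again on its right part. The pig is therefore the replicate, and the parts repeat 1 RNA. Normal replicate 2 and destructured replicate 3 are labelled with 1 shared pig number, so the 14 arrays may come from 13 animals; they were treated as separate pigs in every test, the permutation splits included, unless stated.

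Muscle forms superoxide and peroxides as it respires and works. Superoxide dismutases turn superoxide into hydrogen peroxide, glutathione peroxidases and transferases spend glutathione to clear peroxides and reactive lipids, and ferritin stores iron and so keeps it from driving radical formation. The thioredoxin system reduces oxidised protein thiols, and TXNIP binds thioredoxin and blocks it. TXNIP is also an arrestin-like protein that restrains glucose uptake and is induced by glucose in many cells.

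Levels are log2 intensities after quantile normalization over the 28 array parts, averaged over the left and right part of a pig. A probe was called when its p-value from limma, Benjamini-Hochberg adjusted over all 4608 probes, was under 0.05. A positive difference means a higher log2 level in destructured muscle, and SE is the standard error from the fit. A probe's level cannot be set against that of another probe, so only differences between pigs are compared.

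Some facts of the whole series bear on every value below. Left and right parts agreed well in 13 arrays (correlation over probes of 0.868 or more) and poorly in that of normal replicate 3 (0.380). The 18 probes show this too: between the left and right part of that pig's array the TXNIP probe differed by 2.41, 1 MGST3 probe by 3.59 and 1 SELENOW probe by 3.27 on the log2 scale. Where normal replicate 3 was the lowest or highest normal pig for a probe, the difference is therefore also given with its left part alone. Differences also varied with table position, which repeats every 72 rows as 12 columns. Over all probes columns 2 to 7 averaged 0.11 and the other columns -0.11. Of the 18 probes 10 lie in columns 2 to 7, and 6 of these in column 6, which averaged 0.13. Of the skeletal muscle markers 3 of 7 could be matched to named probes, the 36 probes of CKM, DES and RYR1. Their summed intensity was 141.7 to 154.5 in normal and 147.4 to 170.8 in destructured pigs.

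The gene names are used with caution, and probes listed for 1 gene did not follow each other across pigs. Taking each pig as the deviation from its group mean, the 16 pairs of probes that share a gene had a mean correlation of -0.065 over 14 pigs, from -0.65 to 0.63. The 137 pairs from different genes had a mean of -0.031. Without normal replicate 3 the means were -0.043 and -0.028. The median SD between the parts of a pig was 0.327 for the 18 probes without that pig. Between destructured pigs the median SD, of means over both parts, was 0.223. Whether the low correlations come from measurement noise or from the gene names was not tested. Each value below is therefore that of the probe listed for a gene, named with its probe number. Long cDNA probes can also bind transcripts of close relatives, and members of the alpha class glutathione transferases and of ferritin could not be told apart from near-identical copies.

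Of the 18 probes 1 was called, that listed for TXNIP, which was higher in destructured muscle. Over the whole array 30 probes were called (0.651%), 25 of them higher in destructured muscle (0.543%). Of these 30 calls 27 lie in table columns 2 to 7, and the TXNIP probe and FTL probe 7122 both lie in column 6. With unadjusted p under 0.05 stood 2 of the 18, the TXNIP probe and 1 of 3 FTL probes, against 601 of all probes (13.0%). The differences of the 18 ranged from -0.43 to 0.79, with 8 positive and 10 negative and a median of -0.046. All 4608 probes had a median of -0.021, with 2134 positive (46.3%). On the deposited scale the median of all probes was 0.21 and 15 of the 18 were positive, so signs near 0 depend on the scaling. The groups did not overlap for the same TXNIP and FTL probes, which is 2 of the 18, where 59 of all probes showed no overlap (1.28%).

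**Figure D1:**
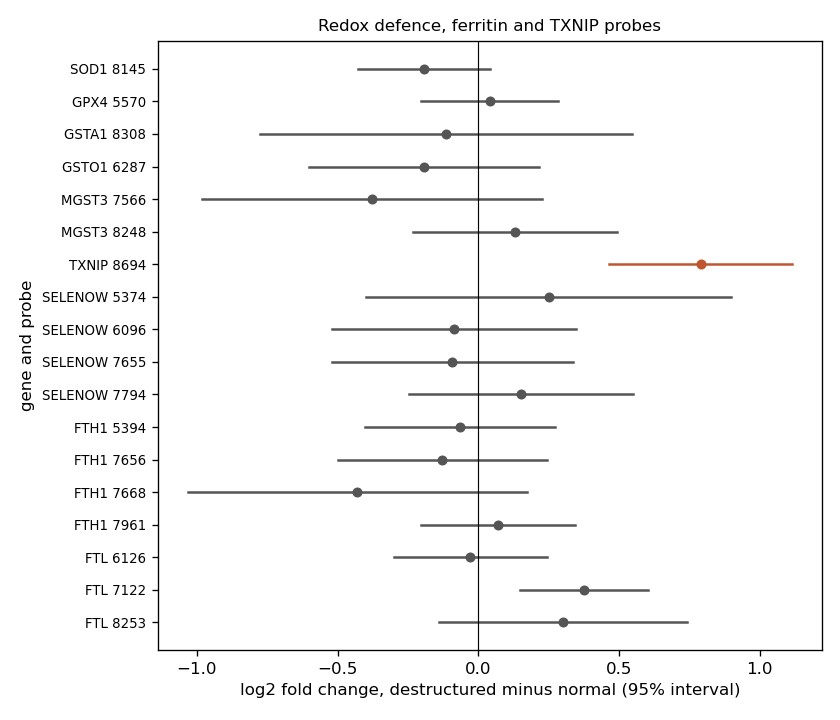
Difference between destructured and normal muscle for the 18 probes (x axis, log2 fold change with its 95% interval; y axis, gene and probe number; 7 pigs per group). The TXNIP interval runs from 0.47 to 1.11 and that of FTL probe 7122 from 0.15 to 0.60, and all other intervals include 0.

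The thioredoxin inhibitor TXNIP has 1 probe, 8694. Normal pigs had log2 levels of 2.49 at the lowest, 3.23 at the median and 3.74 at the highest. Destructured pigs had 3.84, 3.96 and 4.07. Every destructured pig lay above every normal pig, and the destructured pigs lay close together. The means were 3.16 ± 0.389 in normal and 3.95 ± 0.077 in destructured muscle (SD, n = 7 each), a 1.73-fold difference (log2 0.79, SE 0.15, limma adjusted p = 0.0322). In an exact two-sided permutation test the unadjusted p was 0.00058, the smallest that 3432 splits of the pigs can give, and the adjusted p was 0.0455. Every probe whose groups do not overlap gets this p, so the test restates the lack of overlap and adds nothing to it. On the deposited scale, before any scaling, single parts read from 1.62 to 23.6 in normal and from 10.4 to 25.1 in destructured pigs, and pig means overlapped.

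The lowest normal pig for TXNIP was normal replicate 3, with 3.70 in its left part and 1.29 in its right part. With the left part alone, the normal pigs ranged from 2.97 to 3.74 around a mean of 3.33, still all below the destructured pigs. The difference was then 0.62 (SE 0.13, limma adjusted p = 0.0124), and without that pig it was 0.68 (SE 0.12, adjusted p = 0.0147). In normal replicate 1 the parts also stood apart, at 2.62 and 3.90. The SD between the parts of a pig was 0.306 for this probe over the 13 arrays other than that of normal replicate 3. It is an SD of single parts in both groups. The 0.077 between destructured pigs is an SD of means over both parts, so the values are not directly comparable.

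The call for TXNIP did not hold in every fit with 1 pig left out. The differences in these fits ran from 0.68 to 0.89, and 6 of 14 fits passed. In the fits that lost the call, 2 to 9 probes were called over the whole array, and in those that kept it 14 to 84. The adjusted p thus moved with the whole array, and the loss of a call does not mark the pig left out as the source of the difference. Groups that do not overlap cannot come to overlap when a pig is removed, so these fits could not test separation or direction. By limma, the adjusted p was 0.1002 without normal replicate 2, 0.0778 without normal replicate 4 and 0.0528 without normal replicate 5. It was 0.0622, 0.0809, 0.0708, 0.0701 and 0.0800 without destructured replicates 2, 3, 4, 5 and 7. With the median of each table position removed the difference was 0.63 (SE 0.14, adjusted p = 0.0780), and with the left part alone for normal replicate 3 as well it was 0.47 (SE 0.12, adjusted p = 0.0916) and the groups overlapped. The groups overlapped too, and limma did not call the probe, on the deposited scale (1.02, adjusted p = 0.125), with median centring (0.80, adjusted p = 0.1001) and from the left (0.62, adjusted p = 0.141) or right parts alone (0.96, adjusted p = 0.336). The call was also lost without the 2 arrays that share a pig number, normal replicate 2 and destructured replicate 3 (0.75, adjusted p = 0.224), and with trend and robust variances (0.79, adjusted p = 0.0650).

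**Figure D2:**
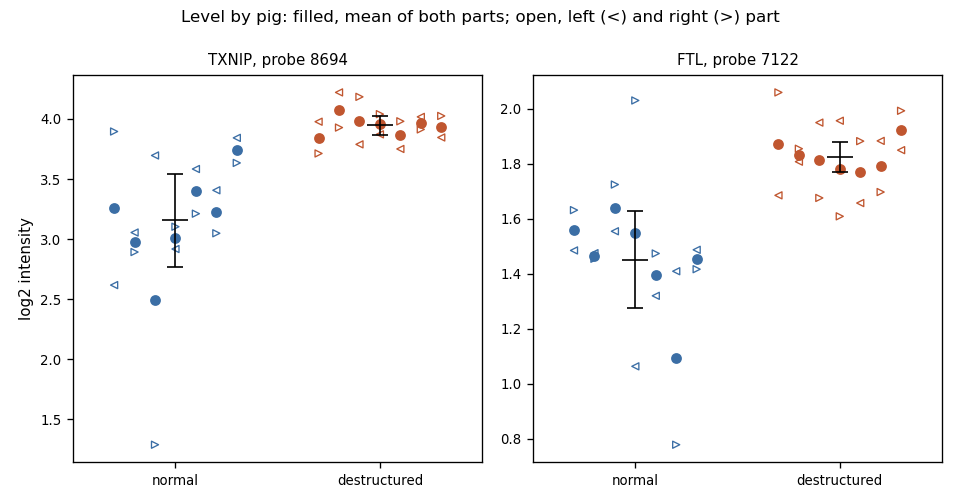
Log2 intensity (y axis) in each of the 7 normal and 7 destructured pigs for the TXNIP probe and FTL probe 7122; filled points are pig means, open triangles the left and right parts, and bars the group mean ± SD. For both probes the pig means of the groups do not overlap, and for TXNIP the right part of normal replicate 3 lies at 1.29, far below its left part.

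**Figure D3:**
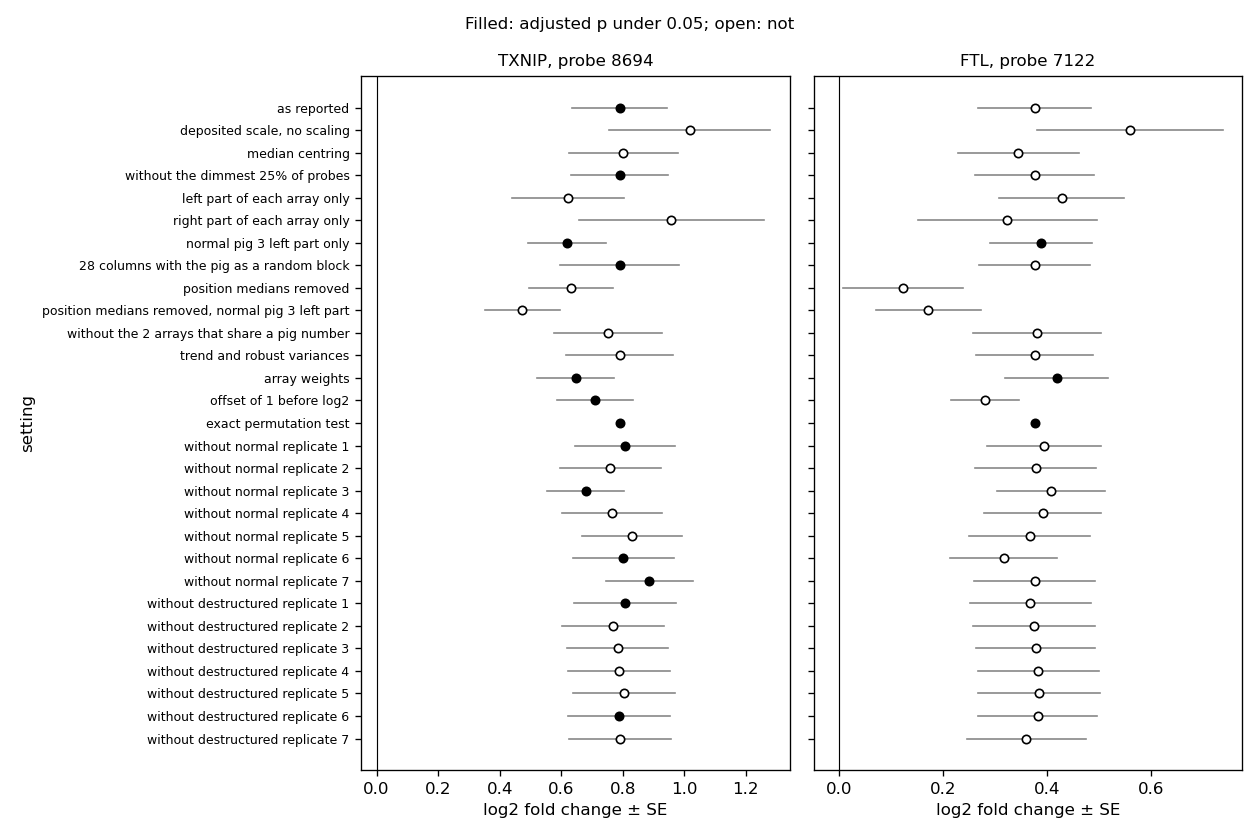
Log2 fold change ± SE (x axis) of the TXNIP probe and FTL probe 7122 as reported and under each alternative setting (y axis; the permutation test has no SE); filled points passed the adjusted threshold of 0.05. The TXNIP probe stays between 0.47 and 1.02 and passed in 12 of 28 alternatives, and the FTL probe stays between 0.12 and 0.56 and passed in 3.

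Among the 508 other probes that carry 1 gene symbol, the TXNIP probe was most like those listed for UCP3, FABP4, VDAC1, GAPDH and NDUFA4. The measure was the correlation of deviations from the group mean over 14 pigs, given as a description. For UCP3, a mitochondrial uncoupling protein of muscle, probe 8647 correlated at 0.86, and at 0.78 without normal replicate 3. The values were 0.83 and 0.63 for FABP4, a fatty acid carrier of adipocytes, and 0.83 and 0.64 for VDAC1, which forms pores in the outer membrane of mitochondria. GAPDH, a glycolytic enzyme, stood at 0.82 and 0.60, and NDUFA4, a subunit of the respiratory chain, at 0.82 and 0.59. Without that pig UCP3 ranked 1 and VDAC1 5 among the 508 probes, while FABP4, GAPDH and NDUFA4 moved to ranks 7, 9 and 10. All of these values come from the same arrays, and all 5 probes lie in table columns 3 to 7. Of these probes VDAC1 probe 7555 was called (0.78, SE 0.17, limma adjusted p = 0.0402). UCP3 probe 8647 (0.42, SE 0.32), FABP4 probe 8934 (0.28, SE 0.15), GAPDH probe 8812 (0.26, SE 0.17) and NDUFA4 probe 6087 (0.48, SE 0.19) were not.

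Since FABP4 marks adipocytes, the adipocyte list is given beside TXNIP. Of its 6 genes 2 could be matched to named probes, FABP4 and PPARG, at 0.28 and 0.064, and neither was called. Their summed intensity was 7.98 to 14.9 in normal and 13.3 to 15.5 in destructured pigs. The other lists of cell type markers held no called probe either. The fibroblast probes of FN1 and MGP stood at -0.34 (SE 0.17) and -0.58 (SE 0.35). Fast fibre markers had 36 positive and 55 negative probes, and slow fibre markers 9 and 8. The macrophage and endothelial probes lay between -0.031 and 0.016. The part of any of these lists in the TXNIP difference was not tested. In whole muscle, fewer cells of a type and less RNA per cell cannot be told apart.

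Ferritin is a shell of heavy chains, which oxidise iron for storage, and light chains, which help the mineral core to form. The FTL probe 7122, for the light chain, had log2 levels of 1.09, 1.46 and 1.64 in normal pigs (lowest, median and highest) and 1.77, 1.81 and 1.92 in destructured pigs. All 7 destructured pigs lay above all normal pigs, as for TXNIP. The means were 1.45 ± 0.177 and 1.83 ± 0.054 (SD, n = 7 each), a 1.30-fold difference that missed the threshold (log2 0.38, SE 0.11, limma adjusted p = 0.111). It passed with the left part alone for normal replicate 3 (0.39, SE 0.098, adjusted p = 0.0356), where 135 probes were called (2.93%). It also passed with array weights (0.42, SE 0.10, adjusted p = 0.0282), where 129 were called (2.80%). It passed in the exact permutation test too (adjusted p = 0.0455), where 59 were called (1.28%). That pass restates that the groups did not overlap. With position medians removed the same probe stood at 0.12 (SE 0.12, adjusted p = 0.761) and the groups overlapped. They overlapped as well with the left part alone for normal replicate 3 on top of that (0.17, adjusted p = 0.544), on the deposited scale (0.56, adjusted p = 0.167) and from the right parts alone (0.32, adjusted p = 0.562), and limma called the probe in none of these.

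The other light chain probes did not follow probe 7122. FTL probe 8253 had -1.69, -0.32 and -0.11 in normal and -0.55, -0.15 and -0.077 in destructured pigs, a difference of 0.30 (SE 0.21, limma adjusted p = 0.557). Its 3 lowest values were those of normal replicates 1, 2 and 3, the groups overlapped, and in normal replicate 1 the parts read -3.11 and -0.27. FTL probe 6126 had 1.01, 1.43 and 1.48 in normal and 1.14, 1.19 and 1.65 in destructured pigs, a difference of -0.028 (95% interval -0.30 to 0.24), or of -0.047 with the left part alone for normal replicate 3, its highest normal pig. It was the most repeatable of the ferritin light chain probes, with an SD of 0.140 between parts over the 13 arrays other than that of normal replicate 3, against 0.265 for probe 7122. The 3 pairs of FTL probes correlated at a mean of -0.12 over 14 pigs. With the 3 FTL probes averaged, the gene stood at 0.22 (SE 0.11, limma adjusted p = 0.399).

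For the heavy chain FTH1, 3 probes had negative values and 1 a positive value, and none was called. Probe 7668 had the lowest difference of all 18 probes, at -0.43 (SE 0.29, limma adjusted p = 0.535). Its levels were 2.91, 3.74 and 4.38 in normal and 2.14, 3.56 and 4.01 in destructured pigs, and destructured replicates 7, 5 and 3 lay below every normal pig while the other 4 lay among them. Probe 7656 stood at -0.13 (SE 0.18), probe 5394 at -0.063 (SE 0.16) and probe 7961 at 0.070 (SE 0.13), with overlapping groups each. For probe 5394, where normal replicate 3 was the highest normal pig, its left part alone gave -0.024 (SE 0.14). With both parts, the intervals of probes 7656, 5394 and 7961 ran from -0.50 at the lowest to 0.34 at the highest. With the 4 probes averaged, FTH1 stood at -0.14 (SE 0.13, adjusted p = 0.682), a sign opposite to that of FTL. A difference between the 2 ferritin chains was not tested.

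**Figure D4:**
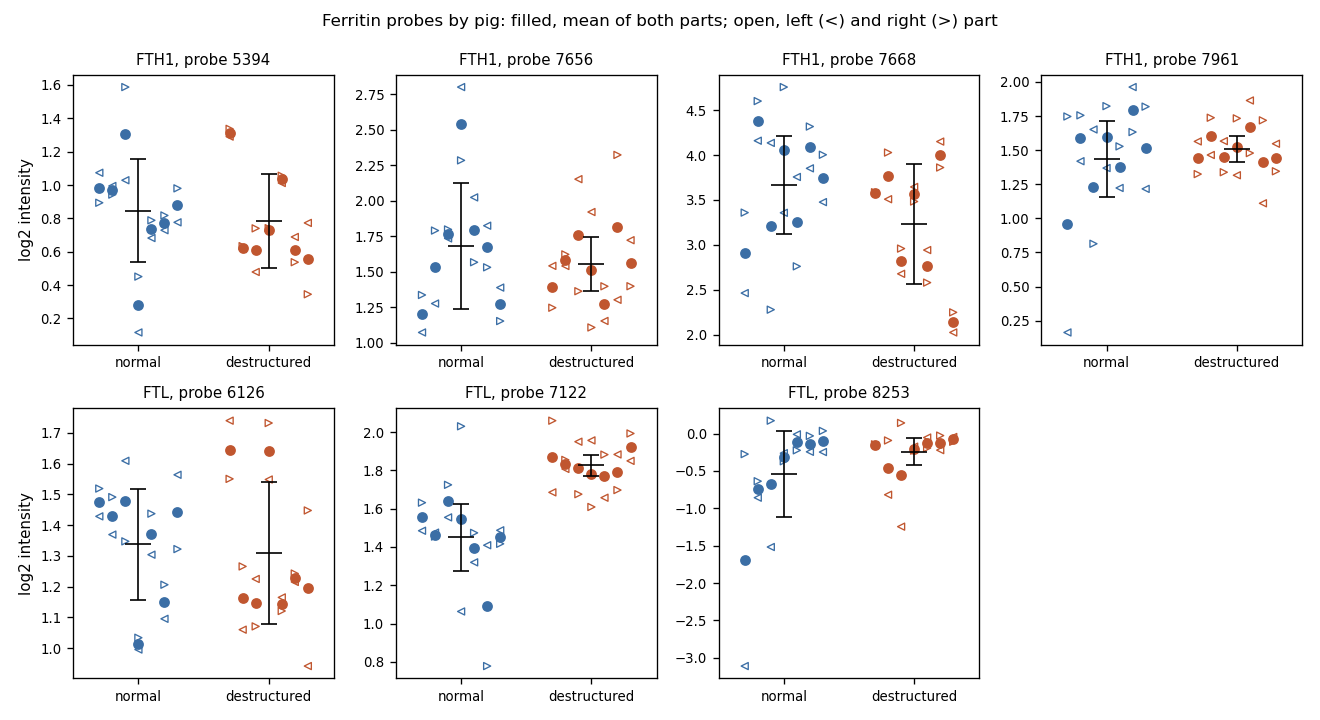
Log2 intensity (y axis) by pig and group for the 4 FTH1 and 3 FTL probes, drawn as filled pig means, open left and right parts and the group mean ± SD of 7 pigs. Only FTL probe 7122 separates the groups among these 7, and FTH1 probe 7668 spreads from 2.14 to 4.01 within the destructured group.

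The cytosolic superoxide dismutase SOD1, which holds copper and zinc, has 1 probe. Normal pigs had levels of -0.23, -0.094 and 0.16, and destructured pigs -0.37, -0.27 and -0.0077. Of the destructured pigs 5 lay below the lowest normal pig, and replicates 4 and 6 lay higher, among the normal pigs. The difference of -0.19 (SE 0.11, 95% interval -0.43 to 0.041) was not called (limma adjusted p = 0.479). Its level is in the dimmest 9.40% of probes, and on the deposited scale its sign turned (0.096).

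GPX4, the selenoenzyme that reduces lipid hydroperoxides within membranes, has 1 probe with nearly equal levels in the groups. They were 1.62, 1.91 and 2.10 in normal and 1.76, 1.86 and 2.17 in destructured pigs. The difference was 0.040 (SE 0.12), with a 95% interval of -0.20 to 0.28. The group SDs were 0.165 and 0.149, and a difference of any size within that interval is not excluded.

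SELENOW, a small selenoprotein that is abundant in muscle, had 2 positive and 2 negative probes, from -0.092 to 0.25, and none was called. Probe 5374 had levels of 2.65, 4.79 and 5.18 in normal and 4.12, 4.68 and 5.50 in destructured pigs, a difference of 0.25 (SE 0.31). Its lowest pig was normal replicate 3, and with the left part alone for that pig its normal mean was 4.72, against 4.74 in destructured pigs (difference 0.017, SE 0.18). Probe 7794 stood at 0.15 (SE 0.19), and its groups overlapped, although all 7 destructured pigs lay above the normal mean. With the left part alone for normal replicate 3, its lowest normal pig, that mean was 2.62, above destructured replicates 1 (2.55) and 7 (2.57), and the difference was 0.071 (SE 0.16). With both parts of every array, all 7 lay above the normal mean for TXNIP and FTL probe 7122 too, and for 985 of all probes all 7 lay on 1 side of the normal mean (21.4%). Probes 6096 and 7655 stood at -0.086 (SE 0.21) and -0.092 (SE 0.20), and at -0.22 (SE 0.16) and 0.076 (SE 0.16) with the left part alone for that pig. With all 4 averaged, the gene stood at 0.056 (SE 0.14, limma adjusted p = 0.908).

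The glutathione transferases add glutathione to reactive compounds. GSTA1, an alpha class enzyme, had levels of 2.87, 4.63 and 5.92 in normal and 4.02, 4.17 and 4.89 in destructured pigs. Both ends of the normal range are single pigs, replicates 3 and 1, and the difference was -0.11 (SE 0.31, 95% interval -0.78 to 0.55). In normal replicate 3 the parts read 4.33 and 1.41. With its left part alone the GSTA1 difference was -0.32 (SE 0.22, limma adjusted p = 0.522), and with position medians removed too it was -0.48 (SE 0.19, adjusted p = 0.304). GSTO1, an omega class enzyme that reduces dehydroascorbate, had 1.23, 1.38 and 2.62 in normal and 1.02, 1.36 and 1.66 in destructured pigs, a difference of -0.19 (SE 0.19). The 2 MGST3 probes, for a membrane-bound transferase, had opposite signs. Probe 7566 stood at -0.38 (SE 0.29), with levels of 0.74, 1.18 and 3.16 in normal and 0.75, 0.93 and 1.37 in destructured pigs, and probe 8248 at 0.13 (SE 0.17). In normal replicate 3 the parts read 1.36 and 4.96 for probe 7566 and 1.55 and 3.68 for GSTO1, and the right part made that pig the highest for both. With its left part alone the normal means were 1.09 in place of 1.35 for MGST3 probe 7566, and 1.400 in place of 1.55 for GSTO1, and the differences -0.12 (SE 0.14) and -0.041 (SE 0.12). For MGST3 probe 8248, where that pig was the lowest normal pig, the difference was then 0.036 (SE 0.14). None of these 4 probes was called.

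**Figure D5:**
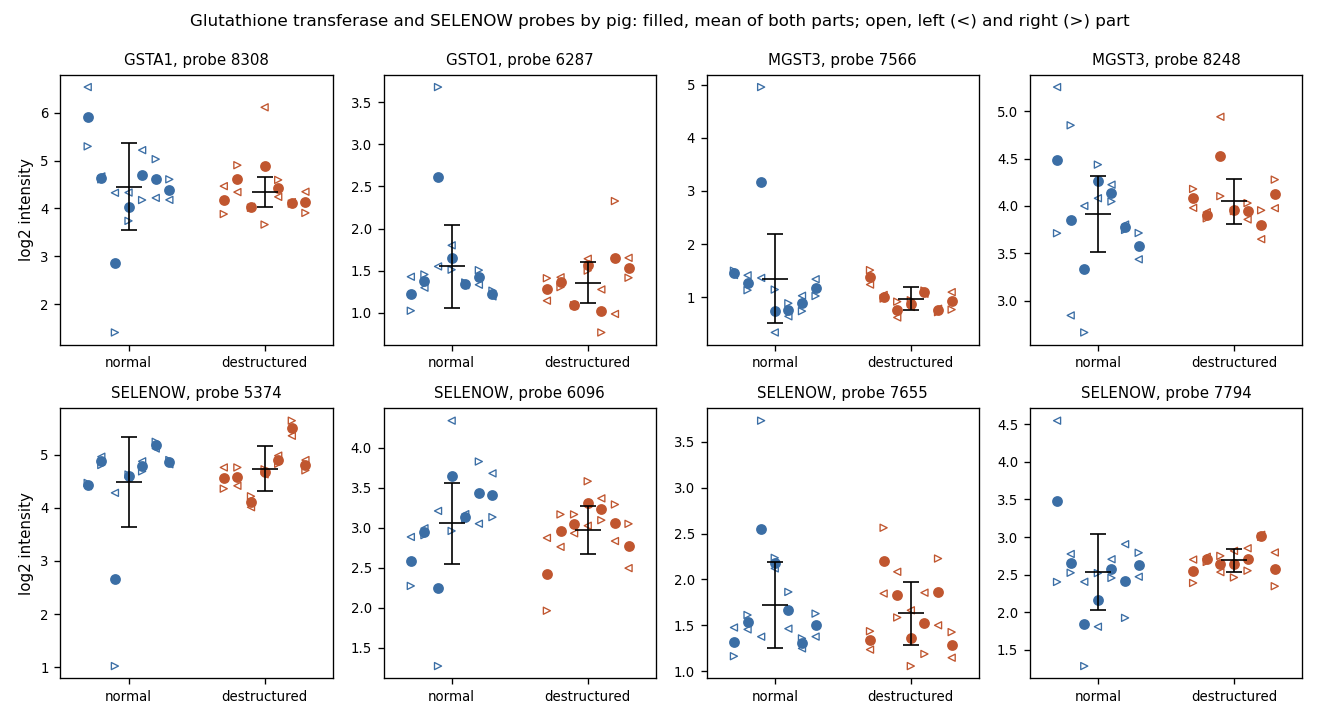
Log2 intensity (y axis) by pig and group for the glutathione transferase and SELENOW probes, drawn as filled pig means, open left and right parts and the group mean ± SD of 7 pigs. In all 8 panels the groups overlap, and the right part of normal replicate 3 sets the lowest or highest pig in several of them, such as 4.96 for MGST3 probe 7566.

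The spread between pigs was larger in the normal group for 16 of the 18 probes, against 74.0% of all probes. The median SD was 0.456 in normal and 0.223 in destructured pigs for the 18, and 0.352 and 0.237 for all probes. With the left part alone for normal replicate 3, the normal group was the more variable in 12 of the 18 and in 61.0% of all probes, and the median SD of the 18 was 0.303. For TXNIP the normal SD was then still 0.303, against 0.077 in destructured pigs, and for FTL probe 7122 it was 0.164 against 0.054. These are descriptions without a test.

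Between genes, the closest pair was GSTA1 and SELENOW probe 7794, whose deviations from the group means correlated at 0.85 over 14 pigs and at 0.78 without normal replicate 3. The most opposed pair was MGST3 probe 7566 and SELENOW probe 5374, at -0.83, which became -0.39 without that pig. TXNIP and FTL probe 7122, the 2 probes with separate groups, correlated at -0.39 within the groups, and at -0.13 without that pig. These correlations come from probes on the same arrays and are descriptions.

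Of 90 further gene symbols in 6 lists of related pathways, 3 could be matched to named probes, 7 in all: UCP2 and UCP3, mitochondrial carriers of the uncoupling protein family, and PGD, which supplies NADPH. None of the 7 probes was called by limma, 1 had an unadjusted p under 0.05, and the exact permutation test called 0 and left 3 under an unadjusted 0.05. The UCP2 probe stood at -0.37 (SE 0.15, limma adjusted p = 0.295), with means of 1.93 ± 0.325 in normal and 1.56 ± 0.227 in destructured muscle (SD, n = 7 each). The 5 UCP3 probes ranged from 0.061 to 0.42, all positive, and PGD stood at -0.12 (SE 0.21). No named probe could be matched to the listed genes of the thioredoxin and peroxiredoxin system, the glutathione system, the further selenoproteins or iron handling.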

How the data were processed

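Nylon cDNA arrays of 14 pigs, 7 per group, were analysed. Per the labels, 33P-labelled cDNA was hybridised and spots were quantified with BZscan; the deposited table gives 4608 probes by 28 columns of linear spot intensity, with 0 missing. Background correction, a division by the first oligonucleotide hybridisation and the authors' test are not given in the sources used here. Column medians ran from 1.69 to 3.67. Intensities were taken to log2, quantile normalized, averaged over the parts of a pig and fitted by group in limma 3.58.1 (R 4.3.3); dim probes were kept and no offset was added. The number of arrays limits the precision. Nothing says that the pigs come from separate litters or days.

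Gene names come from the platform annotation; the Entrez identifiers of all 18 probes were found in RefSeq. Every member probe is named. The genes most like TXNIP are the 5 named probes with the highest correlation, and all measured genes of the pathway lists are named. The members and lists were chosen with earlier results of these data known. Alternatives changed the scaling, dim probes, array parts, table position, the pigs, the variance model, the offset, the threshold, the test and the probes per gene. The poor array part and the position pattern were known beforehand. Figures used matplotlib 3.10.9.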

Additional observations from a re-analysis of the deposited data

Results flagged for a closer look

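For each probe and group, the most extreme of the 7 pigs was compared with its neighbour, relative to the whole range of the group. It stood apart in 5 of 36 cases, and about 1 in 20 would do so by chance. Of the 5, 3 are normal replicate 3: GSTO1 probe 6287 at 2.62 (nearest pig 1.66), MGST3 probe 7566 at 3.16 (nearest 1.46) and SELENOW probe 5374 at 2.65 (nearest 4.44). In its left part alone that pig read 1.55, 1.36 and 4.29 for these probes. The others are destructured replicate 6 for SELENOW probe 7794, at 3.02 (nearest 2.70), and normal replicate 1 for FTL probe 8253, at -1.69 (nearest -0.75).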

How the results depend on the processing

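The count of called probes among the 18, which is 1 as reported, was 0 on the deposited scale, with median centring, with the left and with the right part of each array only, with position medians removed (also with the left part alone for normal replicate 3), without the 2 arrays that share a pig number and with trend and robust variances. It was 2 (TXNIP and FTL probe 7122) with the left part alone for normal replicate 3, with array weights and in the exact permutation test. With 1 pig left out it was 0 to 1. It stayed at 1 without the dimmest 25% of probes, with the pig as a random effect over 28 columns, with an offset of 1, at a threshold of 0.10 and with the probes of a gene averaged. TXNIP kept its direction in 28 of 28 alternatives (0.47 to 1.02, adjusted p from 0.0114 to 0.336). FTL probes 7122 and 8253, MGST3 probe 7566 and FTH1 probe 7668 also kept theirs wherever they were tested. The dim filter left out SOD1 and FTL probe 8253. For TXNIP and FTL probe 7122 the direction with 1 pig left out was fixed beforehand, because their groups did not overlap. The same holds without the 2 arrays that share a pig number and with array weights. The dim filter, the random effect, the trend and robust variances and the permutation test leave a probe's difference as reported. These settings could not turn a sign, so the count of 28 overstates how often the direction was at risk. The other 13 probes, none of them called, turned sign in 44 values, none beyond 0.26. All 18 probes together had 502 alternative values. On the deposited scale SOD1 was at 0.096, GSTA1 at 0.11, SELENOW 6096 at 0.093 and 7655 at 0.082, FTH1 5394 at 0.20 and 7656 at 0.11, and FTL 6126 at 0.19; there the median of all probes was 0.21. With the right part only, GPX4 was at -0.021, GSTA1 at 0.028, SELENOW 6096 at 0.26, FTH1 7961 at -0.063 and FTL 6126 at 0.010, and with the left part only SELENOW 7655 at 0.12, SELENOW 7794 at -0.022 and FTH1 5394 at 0.026. With position medians removed GSTO1 was at 0.096, MGST3 8248 at -0.10, SELENOW 7655 at 0.20, SELENOW 7794 at -0.033, FTH1 7656 at 0.091 and FTH1 7961 at -0.011. With the left part alone for normal replicate 3 as well, these were 0.11, -0.13, 0.23, -0.062, 0.042 and -0.074, and GPX4 was at -0.041 and SELENOW 6096 at 0.025. With that left part alone SELENOW 7655 was at 0.076. With array weights SELENOW 5374 was at -0.051, SELENOW 7655 at 0.036 and FTH1 5394 at 0.010, and without the shared pig number FTL 6126 was at 0.014. With 1 pig left out, values ran from -0.0025 to 0.078 for GPX4, from -0.38 to 0.13 for GSTA1, from -0.055 to 0.37 for SELENOW 5374, from -0.22 to 0.013 for SELENOW 6096, from -0.19 to 0.046 for SELENOW 7655, from -0.16 to 0.013 for FTH1 5394, from -0.21 to 0.015 for FTH1 7656 and from -0.0099 to 0.13 for FTH1 7961. The cause was not tested. No paired analysis was possible because the numbers repeated in the labels mark the parts of an array, and only 1 pig number occurs in both groups.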
